A study of Mus musculus with 6 samples.

Results

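The genes described here are 7 components of the Nodal signalling pathway in mouse embryonic stem cells depleted of Fip1, out of 15267 genes with a named probe set. They are the ligands Nodal (Entrez gene 18119) and Gdf3 (14562), the co-receptor Tdgf1 (21667), the receptor Acvr2b (11481), and the feedback inhibitors Lefty1 (13590), Lefty2 (320202) and Smad7 (17131). They were taken by gene symbol, and a probe set was chosen by its mean level alone where a gene had more than 1, so the levels themselves are given as a description. The list was put together with the differences from mock already known. Counts over it are therefore also descriptions, and the p-values of single genes, which come from a model of all genes, do not account for that choice.

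Total RNA of E14Tg2a.4 cells was hybridised to 6 Affymetrix mouse arrays, with 1 array for each sample. These cells are a feeder-independent mouse embryonic stem cell line grown on gelatin. Of 3 groups with 2 arrays each, the first received Fip1 siRNA 2, the second Fip1 siRNA 3, and the mock group the lipofection reagent alone. A non-targeting siRNA is in none of the groups, so effects of siRNA delivery common to both siRNAs cannot be told apart from loss of Fip1. All cells were harvested on day 4. The labels do not state that replicates of a group were separate cultures, so the spread that the p-values rest on may be technical. Fip1, the product of Fip1l1, belongs to the cleavage and polyadenylation machinery that forms mRNA 3′ ends, and the study asked how its loss changes mRNA levels in stem cells.

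Nodal is a secreted ligand of the TGF-beta superfamily. It binds type I and type II activin receptors together with the co-receptor Cripto, the product of Tdgf1, and the receptors then phosphorylate Smad2 and Smad3, which enter the nucleus with Smad4 and act with DNA-binding partners such as Foxh1. Lefty1 and Lefty2 are direct targets of the pathway that block Nodal outside the cell, and Smad7 blocks the type I receptor inside it. In mouse embryonic stem cells the pathway is active at a basal level, and in the embryo it patterns the epiblast and induces mesendoderm.

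RefSeq promoter windows matched 3 of the 7 genes by symbol (Nodal, Tdgf1 and Acvr2b). Nodal had the smallest adjusted p of the 7 genes below. The difference of Tdgf1 had the opposite sign and passed in only some of the fits. The windows of both are shown so that the start regions of ligand and co-receptor can be compared. Each is the 250 bases before the annotated start in GRCm38.p6, read 5′ to 3′ on the strand of the gene, with capitals marking matches to any of 3 motifs on either strand. Nodal lies on the plus strand (chr10:61417722-61417971) and Tdgf1 on the minus strand (chr9:110946159-110946408).
Nodal: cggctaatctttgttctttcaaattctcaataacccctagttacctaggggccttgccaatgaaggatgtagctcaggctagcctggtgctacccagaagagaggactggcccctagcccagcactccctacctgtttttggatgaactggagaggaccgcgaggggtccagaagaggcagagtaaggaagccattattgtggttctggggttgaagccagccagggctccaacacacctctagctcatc
Tdgf1: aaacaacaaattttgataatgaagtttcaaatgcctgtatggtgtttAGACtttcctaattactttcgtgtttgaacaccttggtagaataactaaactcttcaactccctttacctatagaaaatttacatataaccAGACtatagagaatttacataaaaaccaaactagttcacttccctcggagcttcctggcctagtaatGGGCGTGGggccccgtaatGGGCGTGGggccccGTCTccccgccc

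The motifs searched were AATCCACA, the sequence bound by Foxh1, AGAC, the core of the Smad box, and CCACGCCC, a GC-rich box of the kind bound by Krüppel-like factors, which was added after the sequence of Tdgf1 had been read. The Tdgf1 window held 2 copies of CCACGCCC on the opposite strand and 3 of AGAC, and the Nodal window held 0 of all 3 motifs. No matches overlapped. Of 32851 promoter windows of the same length, 0.718% held AATCCACA, 82.9% AGAC and 4.79% CCACGCCC. GC content was 53.2% for Nodal and 42.0% for Tdgf1. A match is a description of letters and does not show binding.

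The depletion and the cell type were checked first. Fip1l1 had log2 values of 9.65 and 9.74 on the mock arrays and 7.79 to 8.39 on the 4 siRNA arrays. ES cell markers (8 of 8 measured) summed to 64692 to 66850 unlogged units in mock, 60185 to 64262 with siRNA 2 and 64125 to 65194 with siRNA 3, and 0 of 8 passed the test against mock. With replicate number as a block, Nanog was higher (log2 difference 0.22, limma adjusted p = 0.0312) and Tdgf1, which is also on that list, lower. Over all genes 10.3% passed against mock without the block (4.15% higher, 6.19% lower) and 20.2% with it (8.43% higher, 11.7% lower). Calls in these short marker lists are to be read against those shares. Markers of other cell types are given in the same unit, which does not compare levels between lists. Fibroblast markers (9 genes) summed to 225.4 to 271.4 in mock and 227.2 to 303.8 on the siRNA arrays, and 0 passed with or without the block. Mesoderm markers (6 genes) summed to 225.3 to 256.0 in mock, 320.7 to 323.0 with siRNA 2 and 261.3 to 279.1 with siRNA 3, and Kdr (log2 difference 0.96, limma adjusted p = 0.00323) and Evx1 (0.69, 0.0137) among them rose. The other 4 did not pass, with 0.32 for Snai2, -0.04 for Msgn1, -0.11 for Tbx6 and -0.17 for Mesp1. Trophectoderm markers (7 genes) summed to 878.4 to 1542.1 in mock and 1296.7 to 1884.8 on the siRNA arrays, with a rise of Gata3 (0.82, adjusted p = 0.00697), joined with the block by Krt8 (0.68, 0.0102) and Tfap2c (0.37, 0.0232). Primitive endoderm markers (8 genes) summed to 564.9 to 914.8 in mock and 449.5 to 749.3 on the siRNA arrays. None passed without the block, and with it Cubn (-1.19, limma adjusted p = 0.00153), Amn (-0.80, 0.0456) and Sox17 (-0.40, 0.0480) were lower. Amn differed by -0.14 in replicate 1 and -1.46 in replicate 2, where its mock value was higher by 1.31 than in replicate 1. The other 5 did not pass. Only Gata6 had a positive difference (0.25 in replicate 1 and 0.18 in replicate 2). Whether cells of these types had a part in the differences below was not tested, and in bulk samples fewer or more cells of a type and less or more RNA per cell cannot be told apart.

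On the siRNA arrays the ligand and its secreted inhibitors differed from mock in opposite directions. For the mean of both siRNAs against mock, Nodal rose 1.72-fold, Lefty1 fell to 56.0% of the mock level and Lefty2 to 62.1%, while Gdf3, Tdgf1, Smad7 and Acvr2b did not pass. Across all genes, in this fit without a replicate block, 10.3% passed the threshold of an adjusted p of 0.05 in limma (4.15% higher, 6.19% lower). Of the 7 genes 1 was higher and 2 were lower. With replicate number as a block 20.2% of all genes passed (8.43% higher, 11.7% lower), and of the 7 genes 2 were higher and 3 lower. The median log2 difference of the 7 genes was 0.04, that of all genes was -0.00155, and the range of the 7 was -0.84 to 0.78. The 4 siRNA arrays lay wholly above or below both mock arrays for 6 of the 7 genes, 3 in each direction, and for 33.5% of all genes (15.2% higher, 18.4% lower).

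**Figure D1:**
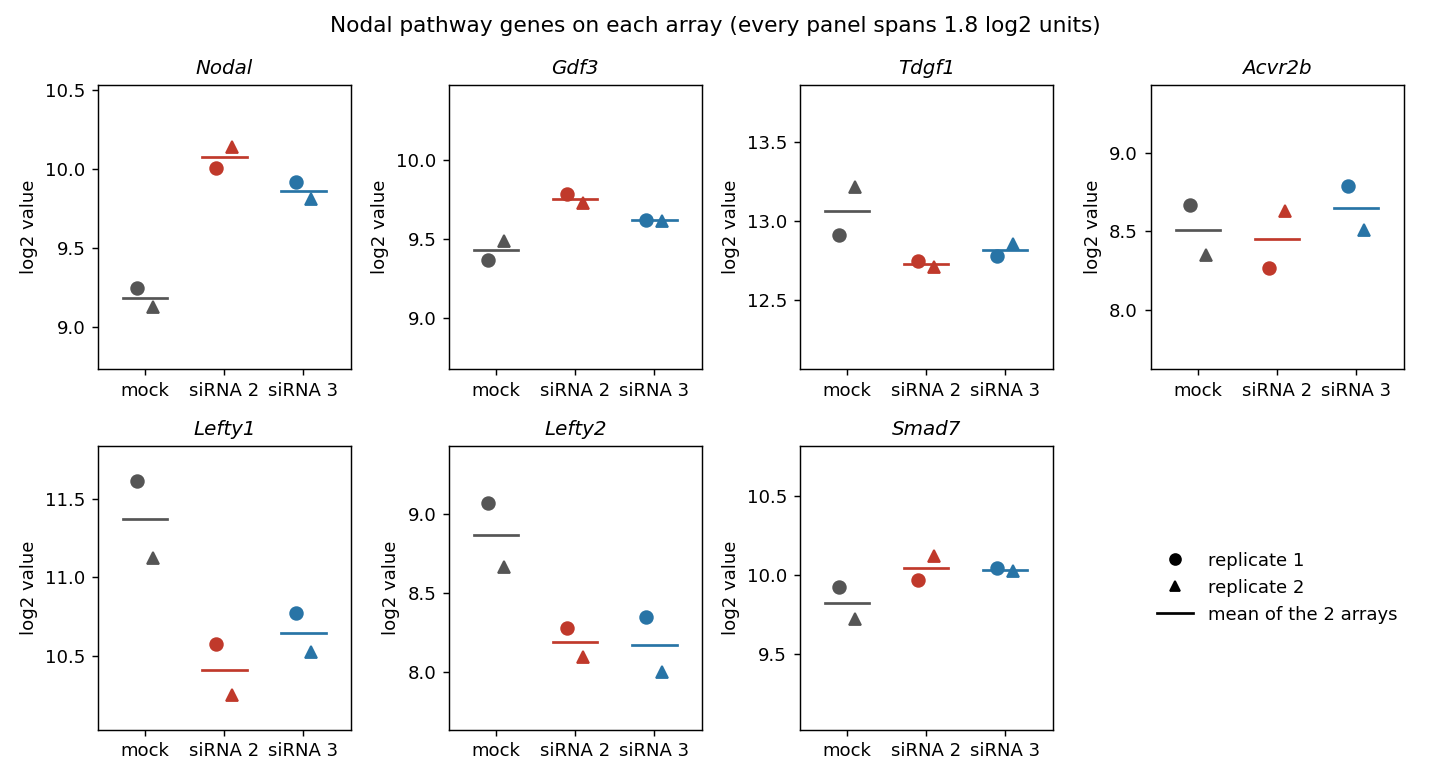
Log2 values of the 7 genes (y axis, every panel spanning the same number of log2 units) in the mock, siRNA 2 and siRNA 3 groups (x axis). Points are single arrays, circles for replicate 1 and triangles for replicate 2, and lines are means of 2 arrays. Nodal lies higher and both Lefty genes lie lower on all 4 siRNA arrays than on both mock arrays, while the groups overlap for Acvr2b.

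Among the ligands, Nodal had log2 values of 9.24 and 9.12 on the mock arrays (replicates 1 and 2 here and below), 10.01 and 10.14 with siRNA 2, and 9.91 and 9.81 with siRNA 3. All siRNA arrays were above both mock arrays, with a gap of 0.56 between the groups. In order of level the groups were siRNA 2 (mean 10.07 ± 0.10, SD, n = 2), siRNA 3 (9.86 ± 0.08) and mock (9.18 ± 0.09). The difference from mock was 0.78 (SE 0.0934, 95% interval 0.57 to 1.00, limma adjusted p = 0.00246), and it passed without any 1 array. The upper neighbours in that order, siRNA 2 and siRNA 3, differed by 0.21 (95% interval -0.03 to 0.46, adjusted p = 0.984), which did not pass.

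Gdf3, a ligand of the same superfamily that can signal through Cripto and also inhibits BMPs, had values of 9.37 and 9.49 in mock, 9.78 and 9.73 with siRNA 2, and 9.62 and 9.62 with siRNA 3. The siRNA arrays again lay above both mock arrays, by a gap of 0.13. The difference from mock was 0.26 (SE 0.0876, 95% interval 0.06 to 0.46), 1.2-fold, with a limma adjusted p of 0.106. With the replicate number as a block the adjusted p was 0.0435, in a fit in which 20.2% of all genes passed (8.43% higher, 11.7% lower) and 5 of the 7 genes did, Nodal and Gdf3 higher and Tdgf1, Lefty1 and Lefty2 lower.

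Tdgf1 encodes Cripto, the co-receptor that Nodal needs, and is itself a common marker of undifferentiated stem cells. Its values were 12.91 and 13.22 in mock, 12.75 and 12.71 with siRNA 2, and 12.78 and 12.86 with siRNA 3. The siRNA arrays lay below both mock arrays, but the highest of them was only 0.05 below mock replicate 1. The mean level of Tdgf1 was at the 99.6th percentile of all genes, where the processing described below can compress changes. The difference from mock was -0.29 (SE 0.0892, 95% interval -0.49 to -0.09, limma adjusted p = 0.0791), or 81.8% of the mock level. It passed with the replicate block (adjusted p = 0.0222) and without mock replicate 1 (difference -0.44, adjusted p = 0.0305), whereas without mock replicate 2 it was -0.14. RefSeq lists pseudogenes of Tdgf1, and where its probes bind was not examined, so this probe set may read more than 1 locus.

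Acvr2b, a type II activin receptor, gave values of 8.67 and 8.35 in mock, 8.27 and 8.63 with siRNA 2, and 8.79 and 8.51 with siRNA 3. The 3 groups overlapped. The difference from mock was 0.04 (SE 0.149, limma adjusted p = 0.909), with a 95% interval of -0.30 to 0.38. These arrays therefore still allow a difference within that range in either direction, and the range is not a limit of detection. Its sign turned when mock replicate 2 (-0.12), siRNA 2 replicate 2 (-0.05) or siRNA 3 replicate 1 (-0.03) was left out.

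The secreted inhibitor Lefty1 showed the largest absolute difference of the 7 genes. Its values were 11.61 and 11.12 in mock, 10.58 and 10.26 with siRNA 2, and 10.77 and 10.52 with siRNA 3, so that all siRNA arrays lay below both mock arrays by a gap of 0.35. Lefty1 fell by 0.84 on the log2 scale (SE 0.153, 95% interval -1.19 to -0.49, limma adjusted p = 0.0126), which is 1.79-fold. Against the mock array of the same number, the mean of both siRNAs differed by -0.94 in replicate 1 and -0.73 in replicate 2. Here and elsewhere, fits without 1 array had no replicate block. Leaving out a mock array therefore set siRNA arrays of both numbers against mock of 1 number, which mixes in differences between the numbers. The call ended without mock replicate 1 (difference -0.59, adjusted p = 0.0746), the array with its highest value, and held without each of the other 5.

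Lefty2, its close paralogue, had values of 9.07 and 8.66 in mock, 8.28 and 8.09 with siRNA 2, and 8.35 and 7.997 with siRNA 3, again with no overlap and a gap of 0.31. It fell by 0.69 (SE 0.153, 95% interval -1.04 to -0.34, limma adjusted p = 0.0264), which is 1.61-fold. The call ended without mock replicate 1 (adjusted p = 0.159), mock replicate 2 (0.0546), siRNA 2 replicate 1 (0.0538) or siRNA 2 replicate 2 (0.0867). The differences without these arrays stayed between -0.89 and -0.48. The values of Lefty1 and Lefty2 correlated over the 6 arrays (Pearson r = 0.965), a description of arrays that share the same 3 groups. The genes are similar in sequence and the probe sequences were not used here, so how far their probe sets read each other's transcripts is unknown.

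Smad7, the intracellular inhibitor, had a difference of the opposite sign to the Lefty genes. Its values were 9.93 and 9.72 in mock, 9.97 and 10.12 with siRNA 2, and 10.05 and 10.03 with siRNA 3, so the siRNA arrays were higher by a gap of only 0.04. The difference of 0.22 (SE 0.0964, 95% interval -0.00 to 0.44) did not pass (limma adjusted p = 0.214), also not with the replicate block (0.119). It was 0.32 without mock replicate 1 and 0.11 without mock replicate 2. Across the 6 arrays the values of Smad7 had an r of 0.867 with Nodal and of -0.640 with Lefty1, and those of Nodal an r of -0.879 with Lefty1 and -0.893 with Tdgf1. These correlations describe 6 arrays in 3 groups and mostly restate the differences between siRNA and mock.

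The next comparison took each siRNA on its own, which shares the mock arrays between both tests. Nodal passed with siRNA 2 (1.86-fold, limma adjusted p = 0.00433, where 6.92% of all genes passed, 2.91% higher and 4.01% lower) and with siRNA 3 (1.6-fold, adjusted p = 0.0127, where 5.74% passed, 2.26% higher and 3.48% lower). Lefty1 passed with siRNA 2 (difference -0.95, adjusted p = 0.0173). With siRNA 3 its difference was -0.72 (adjusted p = 0.0529, or 0.00105 with the replicate block). Lefty2 gave -0.68 with siRNA 2 (adjusted p = 0.0563, or 0.00255 with the block) and -0.69 with siRNA 3 (0.0590, or 0.00283). With the block 17.2% of all genes passed with siRNA 2 (7.24% higher, 9.95% lower) and 14.1% with siRNA 3 (5.74% higher, 8.38% lower). With siRNA 2 the block also passed Tdgf1 (difference -0.34, adjusted p = 0.0257) and Gdf3 (0.33, 0.0345). Nodal lost its call with siRNA 2 without siRNA 2 replicate 2 (adjusted p = 0.0574), and with siRNA 3 without siRNA 3 replicate 1 (0.0552) or mock replicate 2 (0.102). Lefty1 lost its call with siRNA 2 without siRNA 2 replicate 2 (0.140) or mock replicate 1 (0.0688).

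**Figure D2:**
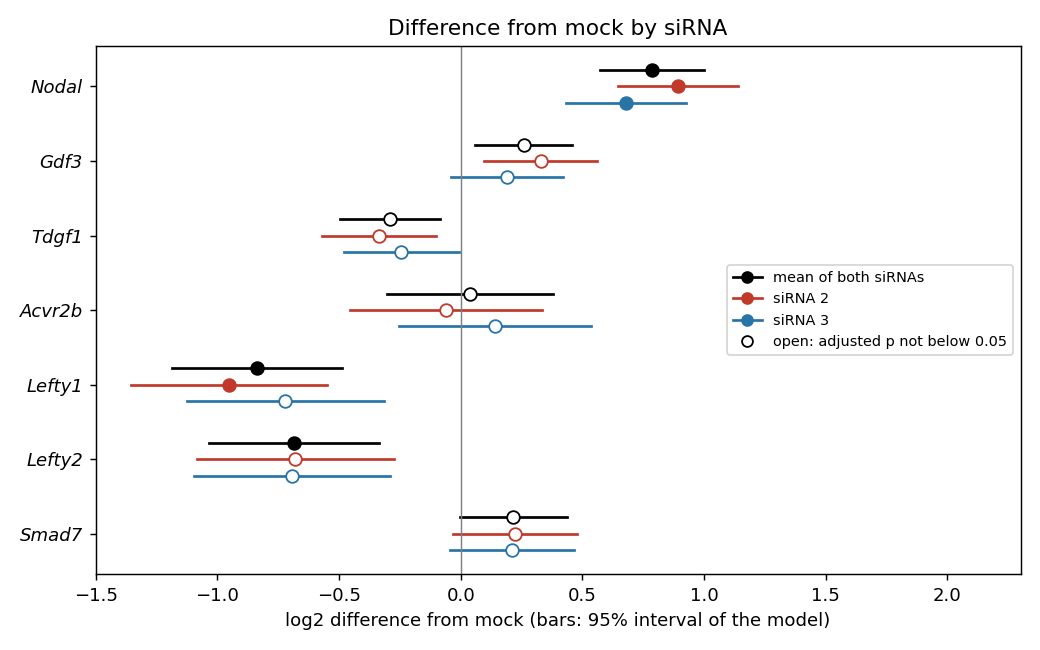
Log2 difference from mock (x axis) of each gene (y axis) for the mean of both siRNAs (black), siRNA 2 (red) and siRNA 3 (blue), with 95% intervals of the model as bars and open points where the adjusted p was not below 0.05. Nodal lies at 0.68 to 0.89 and the Lefty genes at -0.95 to -0.68 for either siRNA.

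The siRNAs were then compared with each other, a test without the mock arrays in the contrast. No gene passed in limma (0 of 15267, or 0%). An unadjusted p below 0.05 was found for 644 of them, a smaller share than the 0.05 that no difference at all would give. For the 7 genes the difference of siRNA 2 from siRNA 3 ran from -0.23 (Lefty1, 95% interval -0.64 to 0.17) to 0.21 (Nodal). That of Lefty2 was 0.01 (interval -0.39 to 0.42) and that of Smad7 0.01 (interval -0.25 to 0.26). The intervals of Lefty1 and Lefty2 still allow differences larger in size than those seen for Gdf3 and Tdgf1 against mock. That of Smad7 allows differences of about that size.

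Sample titles carry a suffix common to each replicate number, so each siRNA array was also set against the mock array of its own number. The 4 pairs of each gene share 2 mock arrays. For the 6 genes whose siRNA and mock arrays did not overlap, the sign of every pair follows from that and adds nothing. Nodal was higher by 0.76 and 1.02 with siRNA 2 and by 0.67 and 0.68 with siRNA 3. Lefty1 was lower in all 4, with -1.04 and -0.87 for siRNA 2 and -0.84 and -0.60 for siRNA 3. Lefty2 was lower in all 4 as well, with -0.79 and -0.57 for siRNA 2 and -0.72 and -0.67 for siRNA 3. For the mean of both siRNAs, Tdgf1 differed by -0.15 in replicate 1 and -0.43 in replicate 2, Gdf3 by 0.33 and 0.19, and Smad7 by 0.08 and 0.35. Acvr2b differed by -0.14 and 0.22, with siRNA 2 giving -0.40 in replicate 1 and 0.28 in replicate 2. The test of whether the difference from mock itself changed between the replicate numbers called 0 of 15267 genes in limma (0%, with 679 at an unadjusted p below 0.05). Its adjusted p was 0.999 for each of the 7 genes, in a fit with only 1 mock array for each number.

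**Figure D3:**
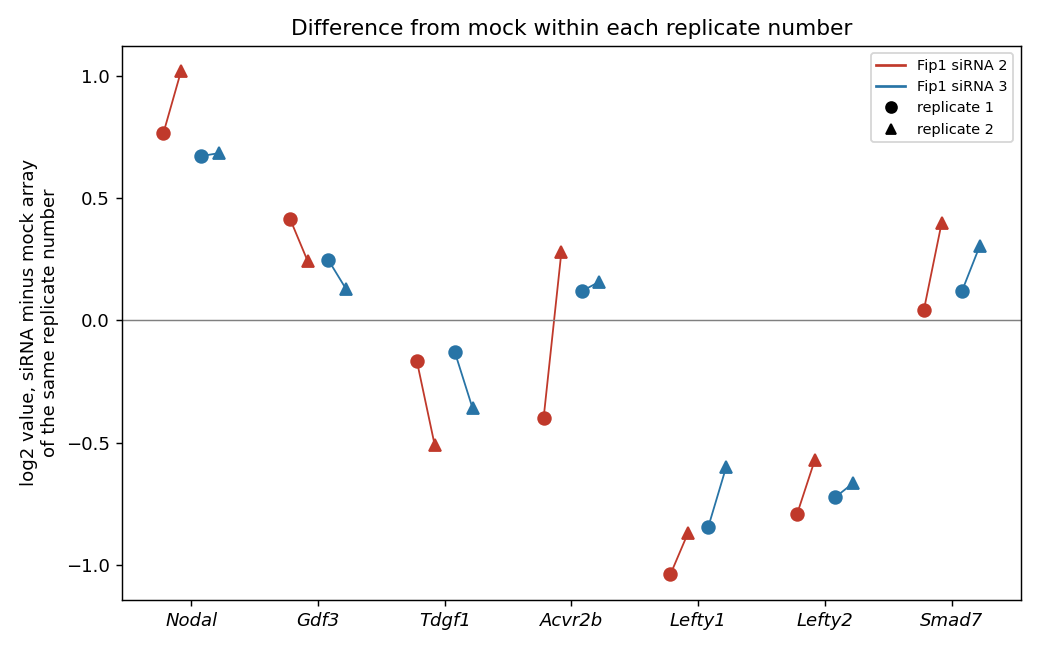
Log2 value of each siRNA array minus that of the mock array with its number (y axis) for the 7 genes (x axis), circles for replicate 1 and triangles for replicate 2, red for siRNA 2 and blue for siRNA 3. Lines join the replicates of 1 siRNA. Nodal, Gdf3 and Smad7 stay above 0 and Tdgf1 and both Lefty genes stay below 0 in every pair, while Acvr2b crosses 0. For all but Acvr2b these signs follow from siRNA and mock arrays that did not overlap.

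The Lefty genes also differed between the replicate numbers. With group in the model, Lefty1 was different on the replicate 2 arrays by -0.35 (SE 0.0698, limma adjusted p = 0.0377, where 2.5% of all genes passed, 1.05% higher and 1.45% lower), with -0.49 in mock, -0.32 with siRNA 2 and -0.25 with siRNA 3. Lefty2 went the same way in each group (-0.41, -0.19 and -0.35), with a mean of -0.32 that did not pass (adjusted p = 0.0889). The other 5 genes lay between -0.08 and 0.12 and did not pass. The call of Lefty1 ended without a trend in the variance (adjusted p = 0.107), without either siRNA 2 array (0.0734 and 0.0721) and without either mock array (0.167 and 0.168). On the same arrays 5 of 8 primitive endoderm markers were higher in replicate 2 (Gata6, Sox17, Sox7, Cubn and Lama1, by 0.43 to 0.80), and the trophectoderm keratins Krt8 and Krt18 were lower (differences of -0.96 and -1.07). Whether these had a part in the Lefty values was not tested.

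Of the wider pathway, 50 of 53 listed genes were measured; 8 rose, 0 fell and 42 did not pass for the mean of both siRNAs, with a median difference of 0.12 against -0.00155 for all genes. These lists were also chosen with earlier results of these data known. Over all genes 4.15% were higher and 6.19% lower, the shares against which the counts by role below are read. With the replicate block 14 of the 50 were higher and 1 lower, in a fit with 8.43% of all genes higher and 11.7% lower.

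**Figure D4:**
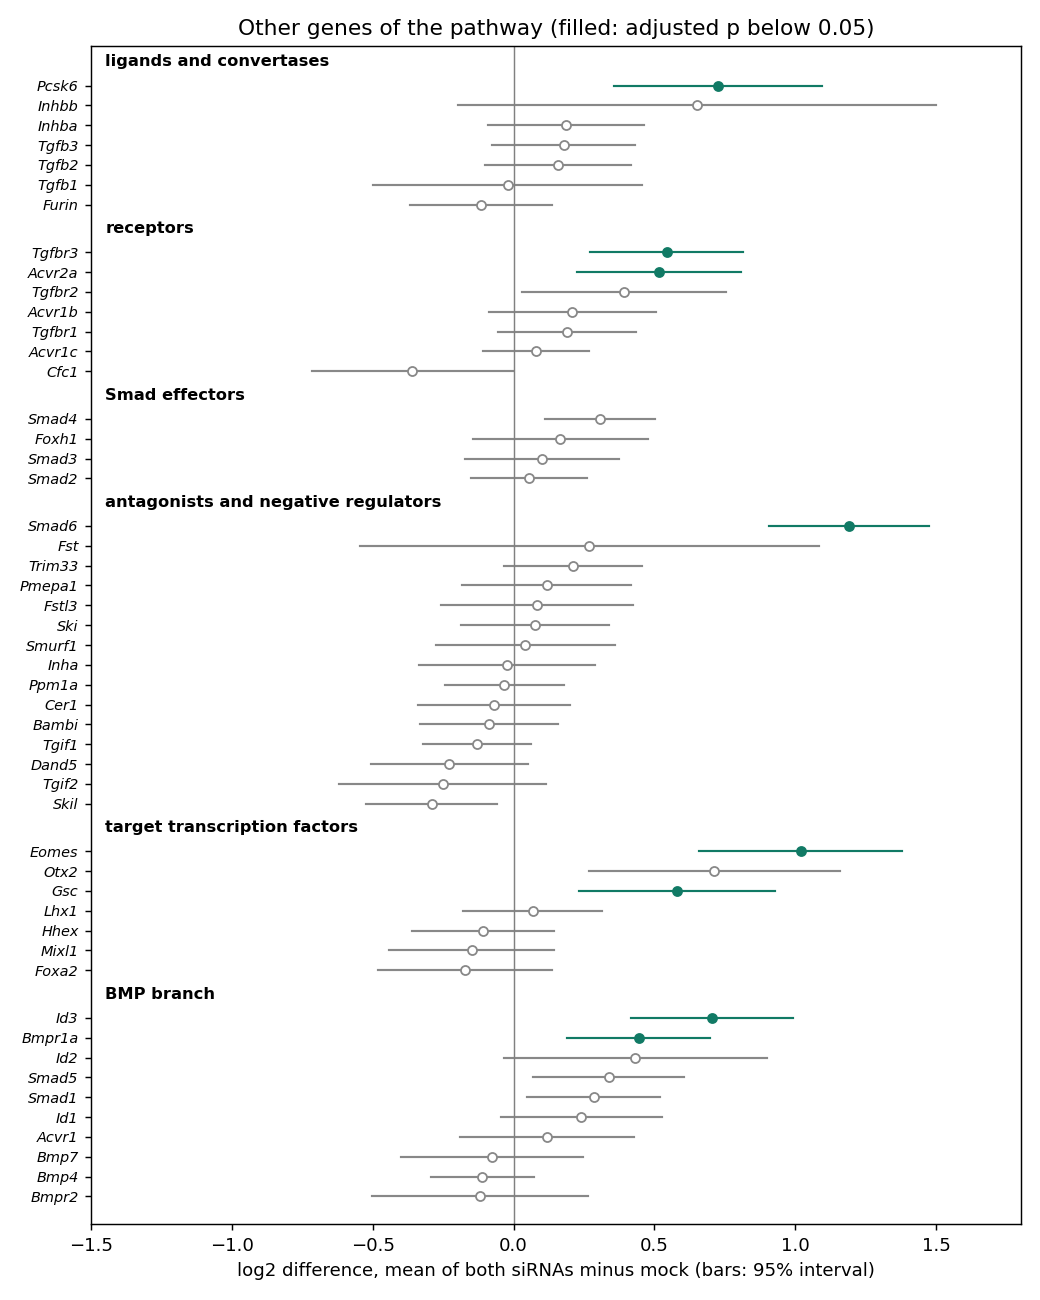
Log2 difference of the mean of both siRNAs from mock (x axis) for 50 further genes of the Nodal, activin and BMP pathways (y axis), grouped by role, with 95% intervals as bars. Filled green points passed the threshold; all 8 of them lie above 0, from 0.44 (Bmpr1a) to 1.19 (Smad6).

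Among ligands and convertases 1 of 7 rose. Pcsk6, a proprotein convertase that cleaves the Nodal precursor, had values of 7.58 and 7.92 in mock, 8.27 and 8.47 with siRNA 2 and 8.34 and 8.81 with siRNA 3. It rose by 0.73 (SE 0.161, limma adjusted p = 0.0263), and the other convertase, Furin, differed by -0.12. Inhbb, an activin subunit, differed by 0.65 and did not pass (adjusted p = 0.336), but its values were higher by 0.97 on the replicate 2 arrays (adjusted p = 0.00107), and with that block its difference passed (0.00171). Without 1 array the difference of Inhbb ran from 0.28 (mock replicate 1 left out) to 1.03 (mock replicate 2 left out). Inhba and Tgfb3 differed by 0.19 and 0.18 and did not pass. The call of Pcsk6 ended without either mock array (0.155 and 0.0733) or either siRNA 2 array (0.0538 and 0.0876).

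Of 7 receptors and co-receptors, 2 rose. Acvr2a, the type II receptor closest to Acvr2b, rose by 0.52 (SE 0.127, limma adjusted p = 0.0381), with 6.52 and 6.25 in mock and 6.83 to 6.99 on the siRNA arrays, where Acvr2b overlapped. Tgfbr3, the co-receptor betaglycan, rose by 0.54 (SE 0.119, adjusted p = 0.0254). Tgfbr2 (0.39, adjusted p = 0.172, or 0.0332 with the block) and Cfc1, which encodes the Cripto relative Cryptic (-0.36, adjusted p = 0.202), did not pass. The call of Tgfbr3 ended without each of the 6 arrays (adjusted p 0.0572 to 0.158), and that of Acvr2a without any of them except mock replicate 1 (0.0717 to 0.238).

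None of the 4 Smad effectors and partners passed. Smad4, the shared partner of the receptor-activated Smads, differed by 0.31 (limma adjusted p = 0.0581, or 0.0139 with the block), Foxh1 by 0.17, Smad3 by 0.10 and Smad2 by 0.05 (95% interval -0.15 to 0.26).

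Of 15 antagonists and negative regulators 1 rose, a share near that of all genes called higher (4.15%). Smad6, the inhibitory Smad that acts mainly on BMP signals, had values of 6.87 and 7.11 in mock, 8.31 and 8.53 with siRNA 2 and 7.87 and 7.99 with siRNA 3. Its rise of 1.19 (SE 0.124, 2.28-fold, limma adjusted p = 0.00168) stands beside a difference of 0.22 for Smad7; the genes were not tested against each other. Skil, a Smad co-repressor and target of the pathway, differed by -0.29 (adjusted p = 0.117, or 0.0377 with the block), Tgif2 by -0.25 and Fst, the activin-binding protein follistatin, by 0.27. The values of Fst differed by -0.90 between the replicate numbers (adjusted p = 0.00646).

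Of 7 transcription factors among known targets 2 rose, Eomes and Gsc. Eomes, a T-box factor of mesendoderm, had values of 6.77 and 6.32 in mock and 7.43 to 7.81 on the siRNA arrays. It rose 2.03-fold (limma adjusted p = 0.00664). Of the mesoderm markers above, 2 of 6 passed and 3 of 6 had a positive difference. Of the trophectoderm markers, 1 of 7 passed and 7 of 7 had a positive difference. Whether cells of either type had a part in the rise of Eomes was not tested. Gsc had values of 3.54 and 3.73 in mock, where the 25th percentiles of the arrays were 4.18 and 4.25. With siRNA 2 it had 4.15 and 4.53 (25th percentiles 4.25 and 4.26), and with siRNA 3 it had 3.90 and 4.28 (4.16 and 4.23). It was below that percentile on both mock arrays and on the replicate 1 array of each siRNA, so its expression there is uncertain. Otx2 differed by 0.71 (adjusted p = 0.0541, or 0.00841 with the block), with 8.80 and 8.002 in mock, and Foxa2 by -0.17. Otx2 passed without mock replicate 1 (1.11, adjusted p = 0.00797) and gave 0.31 without mock replicate 2 (0.265). The call of Eomes ended without mock replicate 2 (adjusted p = 0.0658), and that of Gsc (adjusted p = 0.0478) ended without either mock array (0.214 and 0.150), siRNA 2 replicate 2 (0.121) or siRNA 3 replicate 2 (0.0877).

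In the BMP branch, which shares Smad4 and the inhibitory Smads with Nodal, 2 of 10 genes rose. With the replicate block 4 of 10 were higher, not all of them named here, in a fit with 8.43% of all genes higher. Id3, a direct BMP target, had values of 9.37 and 8.94 in mock and 9.71 to 9.96 on the siRNA arrays, and rose by 0.70 (SE 0.126, limma adjusted p = 0.0118). The type I receptor Bmpr1a rose by 0.44 (adjusted p = 0.0394). Id2 (0.43, adjusted p = 0.243, or 0.00306 with the block) and Smad5 (0.34, adjusted p = 0.114) did not pass, and Id2 gave 0.69 without mock replicate 1 and 0.18 without mock replicate 2. The call of Id3 ended without mock replicate 2 (0.0889) and that of Bmpr1a without each of the 6 arrays (0.0646 to 0.245).

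The genes whose values followed Nodal most closely over the 6 arrays, among 5799 genes with a range of at least 0.5 on the log2 scale, were Gmip (r = 0.999), Adam1a (0.997), Llgl2 (0.994), Nxn (0.994) and Lxn (0.992). Lxn, which encodes the carboxypeptidase inhibitor latexin, had 7.66 and 7.49 in mock, 8.85 and 9.12 with siRNA 2 and 8.62 and 8.70 with siRNA 3, the same order of groups as Nodal. With 6 arrays in 3 groups such values describe these arrays only.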

How the data were processed

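The authors deposited log2 values per probe set, made by RMA, per the submitters' processing notes. The method corrects background, equalises arrays and combines probes, and it can compress changes of dim or very bright probe sets; its version and settings were not stated. Of 16556 probe sets, 15270 had 1 gene, 0 had several and 1286 were unnamed. Names were updated by Entrez number from a RefSeq table, and the brightest probe set per gene was kept (15267 genes). Array medians were 6.08 to 6.12 and nothing was rescaled. Precision is limited by the 6 arrays, and detection calls were not used.

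Limma 3.58.1 (R 4.3.3) fitted group means over all 6 arrays with a variance trend (3 residual degrees of freedom). Replicate number was tested with group in the model, and its interaction in means by depletion and number. P-values are two-sided, adjusted by Benjamini-Hochberg over all genes, with a threshold of 0.05. The model was tested on simulated data. Title suffixes pair the replicate numbers. Deviations from group means of same-numbered arrays correlated at 0.281 to 0.443 in each of the 3 pairs of groups. A second fit therefore took same-numbered arrays as paired, with replicate number as a block. Differences from mock are from the fit without the block unless it is named. For the genes named, blocked values appear where a call depends on the block.

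The 7 genes, the 6 pathway lists and the marker lists were chosen with earlier results of these data known. The text names the 7 genes and, of each pathway list, all that passed and the largest other differences up to 4 genes; Furin and the marker genes were named after their values were seen. Genes like Nodal are the 5 with the highest Pearson r. Alternatives were the replicate block, median centring, repeated quantile normalization, no variance trend, a filter at the 25th percentile, all probe sets, and leaving out each array. Figures used matplotlib 3.10.9 in Python 3.11.15.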

Additional observations from a re-analysis of the deposited data

How the results depend on the processing

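The directions of Nodal, Gdf3, Tdgf1, Lefty1, Lefty2 and Smad7 against mock, for the mean of both siRNAs, were the same under all alternatives run, and Nodal passed in each. With the replicate block (paired) the genes passed numbered 3080 for the mean of both siRNAs (1287 higher, 1793 lower, 5 of the 7), against 1578 without it. They numbered 2624 for siRNA 2 (1105 higher, 1519 lower, 5 of the 7) against 1057, and 2156 for siRNA 3 (876 higher, 1280 lower, 3 of the 7) against 877. Without genes below the 25th percentile 1008 genes passed for siRNA 3 (404 higher, 604 lower, 2 of the 7). For siRNA 2 that filter gave 1223 (517 higher, 706 lower, 3 of the 7). Without a variance trend 227 genes passed between replicate numbers (85 higher, 142 lower, 0 of the 7) against 382. Leaving out 1 array gave 305 to 1368 genes for the mean of both siRNAs (139 to 572 higher, 166 to 796 lower, 2 to 3 of the 7), the fewest without mock replicate 2. It gave 66 to 1094 for siRNA 2 (38 to 458 higher, 28 to 636 lower, 0 to 3 of the 7, the fewest without siRNA 2 replicate 2), 93 to 573 for siRNA 3 (53 to 234 higher, 40 to 339 lower, 0 to 1 of the 7, the fewest without mock replicate 2) and 193 to 317 between replicate numbers (69 to 133 higher, 124 to 184 lower, 0 to 1 of the 7). A group left with 1 array was assumed to vary like the others. The comparisons with mock without 1 array had no replicate block, so the replicate numbers were then unequal between groups.

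Some signs turned. Repeated quantile normalization gave -0.0029 for Smad7 between the siRNAs. Without 1 array, the mean of both siRNAs against mock gave Acvr2b -0.12 to 0.20, Fst -0.31 to 0.84 and Foxa2 -0.36 to 0.011. Acvr2b gave -0.24 to 0.12 with siRNA 2 and -0.018 to 0.30 with siRNA 3. Between the siRNAs Lefty2 gave -0.16 to 0.19 and Smad7 -0.066 to 0.085. Between replicate numbers Nodal gave -0.11 to 0.013, Gdf3 -0.028 to 0.059, Smad7 -0.11 to 0.065 and Acvr2b -0.30 to 0.044. Otx2 and Smad4 passed with median centring (adjusted p = 0.0483 and 0.0442), repeated quantile normalization (0.0443 and 0.0474) and the 25th percentile filter (0.0490 and 0.0463). Gsc did not pass without a variance trend (0.0595) or with all probe sets (0.0505). Of 734 values of single genes under alternatives, 639 kept their sign and side of the threshold. The causes were not tested. Dim probe sets such as that of Gsc limit what can be said of them.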
